A study of Mus musculus with 6 samples.

Results

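Atf4, Atf5, Ddit3, Trib3, Chac1, Sesn2, Asns, Phgdh, Psat1 and Hspa5, genes of the integrated stress response, of serine synthesis and of the endoplasmic reticulum, were followed through the conversion of mouse epiblast stem cells to oligodendrocytes. Each gene was taken from the array row that carries its symbol alone, and all 10 were found among the 19938 genes measured. The study hybridised RNA from 6 cultures of strain 129 cells to 6 Affymetrix whole-transcript arrays, and expression is given on the log2 scale, where a difference of 1 is 2-fold.

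The cultures form a developmental series of 4 cell types. Epiblast stem cells (EpiSCs, pluripotent cells of the postimplantation epiblast) were kept in Knockout DMEM with serum replacement and FGF2 and gave 1 array. Neural rosettes, labelled ventral neural tube, gave 1 array at day 5 of exposure to SB431542, Dorsomorphin, Noggin, RA and SHH. Oligodendrocyte progenitor cells (OPCs) were grown from dissociated rosettes in N2B27 medium with FGF2, PDGF-AA and SHH and gave 2 arrays, at passages 11 and 3. Oligodendrocytes were obtained from OPCs by adding thyroid hormone and withdrawing FGF2 and PDGF-AA, and also gave 2 arrays, at passages 11 and 3. The medium changes with the cell type, so the effects of medium and of cell type cannot be told apart. Apart from passage, no label tells how separate the cultures of 1 cell type were, and p-values here reflect only the spread among these arrays. Between cell types, that spread comes from the differences between passages 11 and 3 within OPCs and oligodendrocytes. It holds any effect of passage, and the rest may be technical.

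In the integrated stress response, kinases that sense amino acid shortage, unfolded protein, double-stranded RNA or haem shortage phosphorylate the translation factor eIF2, which lowers protein synthesis in general and raises translation of the ATF4 messenger RNA. ATF4 protein then switches on genes for amino acid synthesis and uptake, among them those of the serine pathway, and with CHOP, the product of Ddit3, genes linked to prolonged stress. Because ATF4 is controlled mainly at translation, the level of its messenger RNA is a partial readout of the pathway. Myelinating cells make large amounts of membrane protein and lipid, serine feeds the synthesis of sphingolipids, and mutations of eIF2B, the exchange factor for eIF2, cause vanishing white matter disease in humans.

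The promoters of 4 of the genes are shown because they hold the short motifs through which ATF4 and the unfolded protein response act. Each stretch is from RefSeq, build GRCm38.p6, read 5′ to 3′ on the strand of the gene, and the capitals mark the match. The first 3 hold the core of the C/EBP-ATF response element, TGATGNAA, and the fourth holds the endoplasmic reticulum stress response element, which is CCAAT, then 9 bases of any kind, then CCACG. Positions count from the transcription start at +1, with -1 the base before it.
Asns, chr6:7693210-7693322, minus strand, match on the gene's strand at -23 to -16: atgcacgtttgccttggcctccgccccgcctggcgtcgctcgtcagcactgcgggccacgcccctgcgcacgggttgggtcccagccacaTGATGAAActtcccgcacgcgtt
Chac1, chr2:119350992-119351146, plus strand, match on the opposite strand at -193 to -186: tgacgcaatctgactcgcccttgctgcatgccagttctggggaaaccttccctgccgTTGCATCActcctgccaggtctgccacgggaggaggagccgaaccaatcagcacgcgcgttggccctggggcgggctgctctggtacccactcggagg
Trib3, chr2:152344028-152344057, minus strand, match on the opposite strand at 15 to 22 after the start: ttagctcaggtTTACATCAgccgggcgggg
Hspa5, chr2:34771935-34772089, plus strand, match on the gene's strand at -65 to -47: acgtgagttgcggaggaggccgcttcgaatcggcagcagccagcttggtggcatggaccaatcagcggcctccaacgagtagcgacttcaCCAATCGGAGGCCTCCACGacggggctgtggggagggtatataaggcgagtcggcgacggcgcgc

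Both motifs were searched on both strands from 250 bases before to 50 bases after each start. TGATGNAA was found in 1304 of 32851 mouse promoters (3.97%) and in promoters of 3 of the 10 genes. The longer stress response element was found in 39 promoters (0.119%), and among the 10 genes only in that of Hspa5. The motifs do not overlap in the windows printed. A match describes the sequence only, and no match says only that these letters are not in this window.

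Each label was compared with markers of its cell type. The marker lists were chosen with earlier results of these data known, so this is not an independent check. All 7 EpiSC markers read at least 2-fold below EpiSCs in the rosette, and all 7 rosette markers were higher, 5 of them at least 2-fold. All 7 OPC markers were called higher in OPCs than in the rosette, and all 8 oligodendrocyte markers were called higher in oligodendrocytes than in OPCs. The OPC markers stayed high in oligodendrocytes, with medians of 12.47 and 12.37 at passages 11 and 3, against 12.83 and 12.72 in OPCs. Of these 7 markers 5 were lower in oligodendrocytes and 0 were called lower. Whether OPCs remained in the oligodendrocyte cultures was not tested. Markers of other cell types were also read. The 7 neuron markers had a median log2 value of 11.95 in the rosette, against 8.26 in EpiSCs. The 7 astrocyte markers had medians of 11.59 and 11.85 in passage 11 and passage 3 OPCs, against 8.74 in the rosette, and 5 were called higher. Gfap (8.11 at both passages) and Aqp4 (7.84 and 8.27 at passages 11 and 3) stayed low in OPCs, against 7.89 and 7.66 in the rosette. The list median therefore does not tell whether astrocytes were present in OPCs. In bulk RNA, fewer cells of a type and less RNA per cell cannot be told apart. The 6 microglial markers had medians of 7.75 to 8.02 on every array, below the median of all gene means of 9.06.

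None of the 10 genes changed by the limma test (adjusted p under 0.05 over all genes) in any of the 4 tested comparisons, OPCs against the rosette, OPCs against EpiSCs, oligodendrocytes against OPCs, and passage 11 against passage 3. Among all genes, 3.13% were called in OPCs against the rosette, 7.01% in OPCs against EpiSCs, 0.446% in oligodendrocytes against OPCs and 0% between passages. At an unadjusted p under 0.05, 1 of the 10 genes passed in OPCs against the rosette, 2 in OPCs against EpiSCs, 3 in oligodendrocytes against OPCs and 2 between passages, where 15.4%, 20.5%, 12.3% and 13.9% of all genes passed. For 5 genes, Atf4, Atf5, Phgdh, Psat1 and Hspa5, the 95% interval of the difference lay within 2-fold either way in all 4 comparisons, as it did for 58.8% of all genes. Taken by comparison, such intervals were found for 7 of the 10 genes in OPCs against the rosette (73.5% of all genes), 6 in OPCs against EpiSCs (69.5%), 9 in oligodendrocytes against OPCs (84.1%) and 9 between passages (92.6%). The intervals rest on the assumption that all cell types vary alike.

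**Figure D1:**
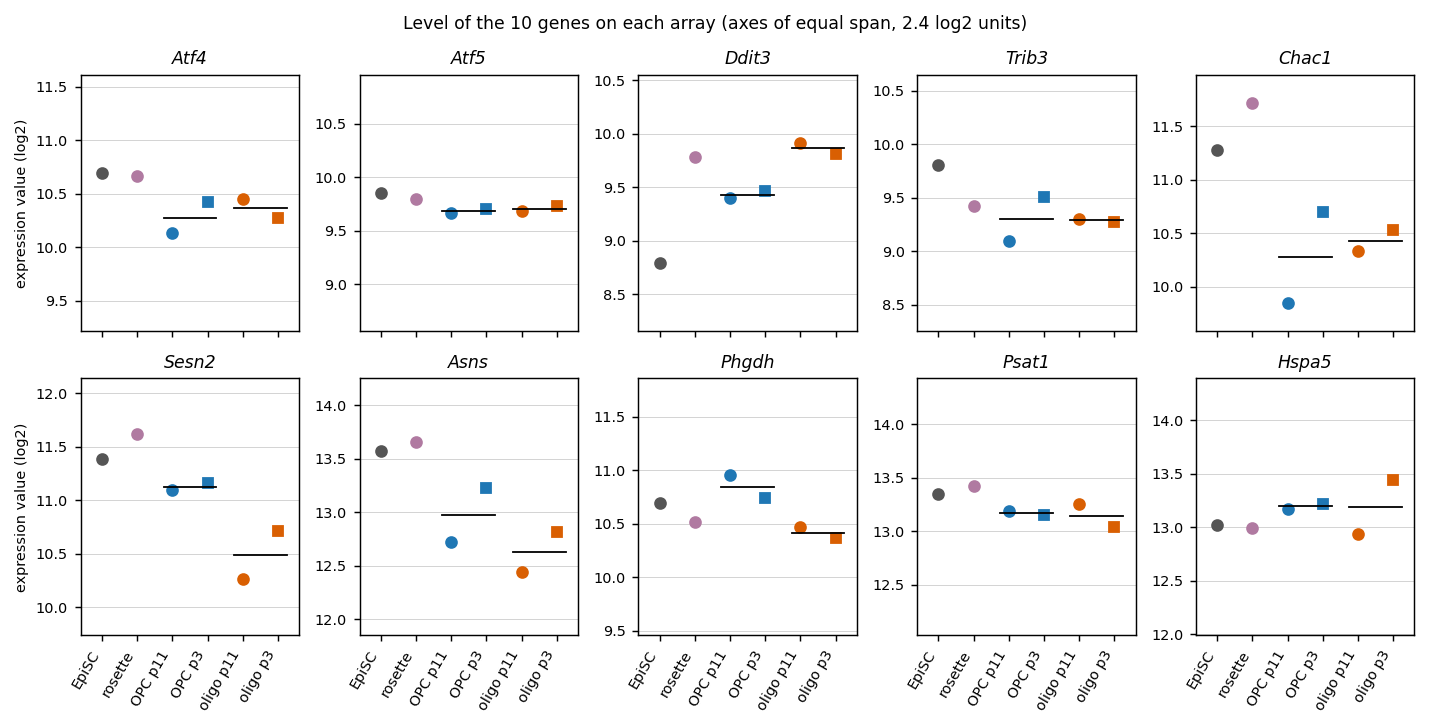
Log2 expression value of each gene (vertical axis, 2.4 log2 units in every panel) on each of the 6 arrays (horizontal axis), with p11 and p3 for passages 11 and 3, oligo for oligodendrocytes, and a black line for the mean of 2 arrays. Atf5 and Psat1 are nearly level, Chac1 and Asns stand higher in EpiSCs and the rosette than in the later cell types, and Ddit3 is lowest in EpiSCs.

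Among the transcription factors, Atf4 (chr15:80255184-80257545), the central factor of the response, had log2 values of 10.70 in EpiSCs, 10.67 in the rosette, 10.13 and 10.43 in passage 11 and passage 3 OPCs, and 10.45 and 10.28 in passage 11 and passage 3 oligodendrocytes. It stood lower on all 4 later arrays than on the 2 earlier ones, and the OPC and oligodendrocyte values overlapped. Atf5, Chac1, Sesn2, Asns and Psat1 also read lower on all 4 later arrays. The share of all genes with this pattern was not counted, so it cannot be called particular to these genes. None of them was called in OPCs against the rosette or against EpiSCs. The log2 difference of OPCs from the rosette was -0.39 (95% interval -0.91 to 0.14, limma adjusted p = 0.501). Against EpiSCs it was -0.42 (SE 0.21, adjusted p = 0.360), and oligodendrocytes differed from OPCs by 0.09 (SE 0.17, adjusted p = 0.962). Atf4 varied over 0.57 log2 units across the 6 arrays, a span that 52.7% of all genes exceeded.

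Atf5 (chr7:44812256-44816658), a related factor that is likewise controlled at translation, had log2 values of 9.85 in EpiSCs, 9.79 in the rosette, 9.66 and 9.70 in passage 11 and passage 3 OPCs, and 9.68 and 9.73 in passage 11 and passage 3 oligodendrocytes. The span of 0.19 log2 units, or 1.14-fold, was exceeded by 96.2% of all genes. The 4 tested differences lay between -0.17 for OPCs minus EpiSCs (adjusted p = 0.732) and 0.02 for oligodendrocytes minus OPCs (adjusted p = 0.994).

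Ddit3 (chr10:127290793-127296291), which encodes CHOP, a factor linked to cell death under prolonged stress, had log2 values of 8.79 in EpiSCs, 9.78 in the rosette, 9.39 and 9.46 in passage 11 and passage 3 OPCs, and 9.91 and 9.81 in passage 11 and passage 3 oligodendrocytes. The EpiSC array was the lowest, and both oligodendrocyte arrays lay above both OPC arrays, as they did for 19% of all genes. The rosette was 1.99-fold above EpiSCs, a difference of 0.99 between single arrays that has no test. OPCs were 0.64 above EpiSCs on the log2 scale (SE 0.17, 95% interval 0.21 to 1.06), which missed the threshold at an adjusted p of 0.0992. Oligodendrocytes were 0.43 above OPCs (SE 0.14, interval 0.09 to 0.78, adjusted p = 0.310). OPCs were 0.36 below the rosette, with an interval of -0.78 to 0.07 and an adjusted p of 0.426. Among the 10 genes, Ddit3 was the only one whose value was lower in EpiSCs than on every other array.

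The next 3 genes encode proteins that ATF4 and CHOP are known to induce and that damp signalling or change metabolism. Trib3 (chr2:152337425-152344060), a pseudokinase that holds back ATF4 and CHOP, had log2 values of 9.81 in EpiSCs, 9.42 in the rosette, 9.09 and 9.51 in passage 11 and passage 3 OPCs, and 9.30 and 9.27 in passage 11 and passage 3 oligodendrocytes. The EpiSC value was the highest, and the 2 OPC values enclosed both oligodendrocyte values. The difference was -0.51 for OPCs minus EpiSCs (SE 0.22, adjusted p = 0.299), -0.12 for OPCs minus the rosette (SE 0.22, adjusted p = 0.894) and -0.01 for oligodendrocytes minus OPCs.

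Chac1 (chr2:119351242-119354326), an enzyme that degrades glutathione, had log2 values of 11.27 in EpiSCs, 11.71 in the rosette, 9.85 and 10.70 in passage 11 and passage 3 OPCs, and 10.33 and 10.53 in passage 11 and passage 3 oligodendrocytes. All 4 later arrays lay below both earlier ones, as for Atf4, and the OPC pair was 0.84 apart, with both oligodendrocyte values between. Its span of 1.86 log2 units, or 3.63-fold, was the widest of the 10 genes and was exceeded by 9.39% of all genes. OPCs were 2.71-fold below the rosette, a log2 difference of -1.44 (SE 0.36, 95% interval -2.36 to -0.52, adjusted p = 0.135). The difference from EpiSCs was -0.999 (SE 0.36, interval -1.92 to -0.08, adjusted p = 0.208). For oligodendrocytes minus OPCs it was 0.16 (SE 0.30, adjusted p = 0.960). With either oligodendrocyte array left out, so that the spread came from the OPC pair alone, Chac1 was called lower in OPCs than in the rosette (adjusted p = 0.0025) and than in EpiSCs (adjusted p = 0.0180). Ddit3 was then called higher in OPCs than in EpiSCs (adjusted p = 0.0219). Those fits called 14.5% of all genes against the rosette and 20.8% against EpiSCs, so 1 and 2 of the 10 genes are no larger a share than the background. The neuron markers were lower in OPCs too, with list medians of 9.81 and 9.73 at passages 11 and 3, against 11.95 in the rosette, and their part in these differences was not tested.

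Sesn2 (chr4:132492804-132510456), a leucine sensor that restrains mTORC1, had log2 values of 11.38 in EpiSCs, 11.62 in the rosette, 11.09 and 11.16 in passage 11 and passage 3 OPCs, and 10.26 and 10.72 in passage 11 and passage 3 oligodendrocytes. Both oligodendrocyte arrays lay below all the others. Both lay below both OPC arrays for 21.1% of all genes, and among the 10 genes for Sesn2 and Phgdh. Oligodendrocytes were lower than OPCs by a log2 difference of -0.64 (SE 0.19, 95% interval -1.12 to -0.15), with an adjusted p of 0.287. Without the passage 3 oligodendrocyte array this difference was -0.86 and was called (adjusted p = 0.0057), in a fit whose spread came from the OPC pair alone and which called 14.6% of all genes. Without the passage 11 oligodendrocyte array it was -0.41 and was not called (adjusted p = 0.283). The difference of OPCs from the rosette was -0.49 (SE 0.24, adjusted p = 0.439) and from EpiSCs -0.26 (SE 0.24, adjusted p = 0.708).

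Of the amino acid enzymes, Asns (chr6:7675165-7693209), asparagine synthetase, had log2 values of 13.58 in EpiSCs, 13.66 in the rosette, 12.72 and 13.23 in passage 11 and passage 3 OPCs, and 12.44 and 12.82 in passage 11 and passage 3 oligodendrocytes. Both earlier arrays lay above all 4 later ones, as for Atf4, and the OPC and oligodendrocyte pairs overlapped. OPCs differed from the rosette by -0.68 (SE 0.29, 95% interval -1.41 to 0.04, adjusted p = 0.358). They differed from EpiSCs by -0.60 (SE 0.29, interval -1.32 to 0.13, adjusted p = 0.343). Oligodendrocytes differed from OPCs by -0.35 (SE 0.23, interval -0.94 to 0.25, adjusted p = 0.695). The span of Asns over the 6 arrays was 2.32-fold.

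Phgdh (chr3:98313171-98339969) catalyses the first step from glycolysis to serine. Its log2 values were 10.70 in EpiSCs, 10.52 in the rosette, 10.95 and 10.73 in passage 11 and passage 3 OPCs, and 10.47 and 10.36 in passage 11 and passage 3 oligodendrocytes. OPCs were the highest group and oligodendrocytes the lowest, with no overlap between them. The difference of oligodendrocytes from OPCs was -0.43 (SE 0.15, 95% interval -0.81 to -0.05, adjusted p = 0.352), and that of OPCs from the rosette was 0.33 (SE 0.19, adjusted p = 0.535). A further row, annotated to Phgdh together with the predicted gene Gm6756, read 11.59 in EpiSCs, 11.63 in the rosette, 11.57 and 11.99 in passage 11 and passage 3 OPCs, and 11.10 and 11.39 in passage 11 and passage 3 oligodendrocytes. It too was lower in both oligodendrocyte arrays than in both OPC arrays, but its passage difference ran the opposite way to that of the row used.

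Psat1 (chr19:15905123-15925059), which carries out the next step of serine synthesis, was close to level. It had log2 values of 13.35 in EpiSCs, 13.42 in the rosette, 13.19 and 13.16 in passage 11 and passage 3 OPCs, and 13.26 and 13.04 in passage 11 and passage 3 oligodendrocytes. The span was 1.31-fold and was exceeded by 72.5% of all genes. OPCs differed from the rosette by -0.25 (95% interval -0.71 to 0.22, adjusted p = 0.677), and oligodendrocytes differed from OPCs by -0.03 (interval -0.40 to 0.35, adjusted p = 0.994).

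Hspa5 (chr2:34772090-34776529) encodes BiP, the main chaperone of the endoplasmic reticulum. Its log2 values were 13.02 in EpiSCs, 12.99 in the rosette, 13.17 and 13.22 in passage 11 and passage 3 OPCs, and 12.93 and 13.44 in passage 11 and passage 3 oligodendrocytes. The 2 oligodendrocyte arrays held the lowest and the highest value of the 6. The means of oligodendrocytes and OPCs were 13.19 ± 0.36 and 13.19 ± 0.04 (SD, n = 2 each), and their difference had a 95% interval of -0.52 to 0.51 (adjusted p = 0.999). OPCs differed from the rosette by 0.20 (interval -0.43 to 0.84, adjusted p = 0.833) and from EpiSCs by 0.17 (adjusted p = 0.858).

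**Figure D2:**
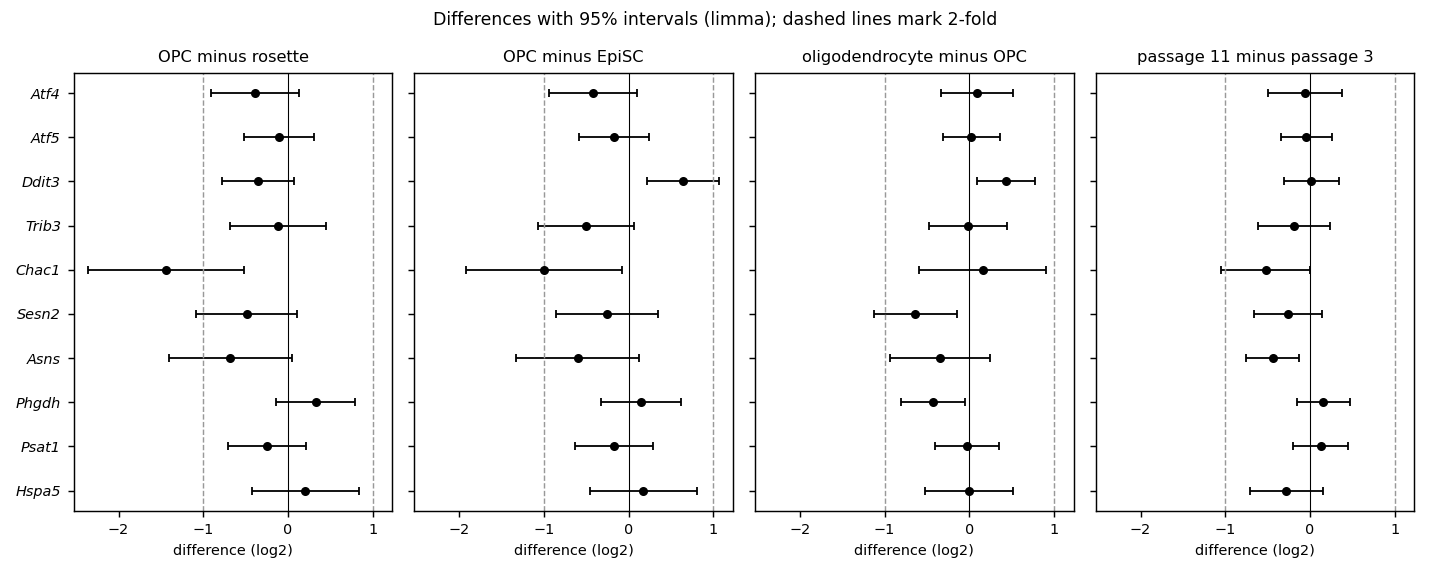
Log2 difference (horizontal axis) with its 95% interval from limma for each gene, 1 panel per tested comparison, with dashed lines at 2-fold either way. Of the 40 intervals 31 lie inside the dashed lines, and those that leave out 0 are Chac1 in OPCs against the rosette and against EpiSCs, Ddit3 in OPCs against EpiSCs, Ddit3, Sesn2 and Phgdh in oligodendrocytes against OPCs, and Chac1 and Asns between passages, none of which passed after adjustment over all genes.

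Ordered by mean level, 3 genes, Asns, Sesn2 and Psat1, ran from the rosette through EpiSCs and OPCs to oligodendrocytes. Atf4 and Atf5 ran from EpiSCs through the rosette and oligodendrocytes to OPCs, and Trib3 from EpiSCs through the rosette and OPCs to oligodendrocytes. Chac1 ran from the rosette through EpiSCs and oligodendrocytes to OPCs, and Phgdh from OPCs through EpiSCs and the rosette to oligodendrocytes. Hspa5 ran from OPCs through oligodendrocytes and EpiSCs to the rosette, and Ddit3 from oligodendrocytes through the rosette and OPCs to EpiSCs. No tested pair of neighbours in these orders differed by the adjusted test, while EpiSCs and the rosette, with 1 array each, were not tested against each other, and neither was tested against oligodendrocytes.

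After centring each gene on its own mean, the root mean square difference between profiles over the 6 arrays was 0.102 log2 units for Atf5 and Psat1, 0.123 for Atf4 and Trib3 and 0.191 for Asns and Sesn2. It was 0.714 for Ddit3 and Sesn2, 0.714 for Ddit3 and Asns and 0.771 for Ddit3 and Chac1. Among all genes, those nearest to Asns by this measure were Spice1 (0.0734), Mpg (0.0781), Scpep1 (0.0786), Mirlet7f-1 (0.0840) and Champ1 (0.0853). Nearest to Phgdh were Prr9, Hapln3, Hnrnpd, Defb15 and Banf1, at 0.0439 to 0.0617. Nearest to Hspa5 were Fbxl17, Naa30, Olfr1251, Pxk and Col6a1, at 0.0488 to 0.0664. With only 6 arrays many of the 19938 genes can come close to any profile.

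Between the 2 earliest stages, none of the 10 genes reached 2-fold in the rosette against EpiSCs, where 6.91% of all genes were at least 2-fold higher and 3.69% at least 2-fold lower. Of the 10 differences 5 were below 0 (58.7% of all genes). They ran from -0.38 for Trib3 to 0.99 for Ddit3, with a median of 0.02 against -0.07 over all genes. Among the lists around them, 0 of 14 eIF2 kinases and regulators and 0 of 18 synthetases reached 2-fold, with differences of -0.90 to 0.36 and -0.72 to 0.50. Of 15 enzymes of serine, glycine and folate metabolism, 3 were at least 2-fold higher and 4 at least 2-fold lower. Srr, serine racemase, had log2 values of 10.64 in the rosette and 7.83 in EpiSCs, a difference of 2.81. Mthfd1, a folate enzyme, read 10.47 in the rosette and 12.39 in EpiSCs. Of 10 amino acid transporters, 2 were at least 2-fold lower, the arginine and lysine carrier Slc7a3 (-2.06) and the glutamine carrier Slc1a5 (-1.55). Of 18 other partners and targets of ATF4 and CHOP, the death receptor gene Tnfrsf10b (-2.41) and Cth (-1.78), which makes cysteine from cystathionine, were at least 2-fold lower, and the lipoprotein receptor gene Vldlr (1.71), named after its value was seen, was at least 2-fold higher. The endoplasmic reticulum genes Herpud1 (1.08) and Sel1l (1.01) were higher in the rosette.

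In OPCs against the rosette, 8 of the 10 genes had a negative difference, where 46.9% of all genes did, and the median was -0.30 against 0.02 over all genes. None was called higher (background 1.26%) or lower (1.87%). Of the 18 other partners and targets of ATF4 and CHOP, 2 fell. Ero1a, an oxidase of the endoplasmic reticulum that CHOP induces, had log2 values of 10.95 and 11.08 in passage 11 and passage 3 OPCs, against 12.46 in the rosette, a difference of -1.44 (SE 0.17, adjusted p = 0.0198). Atf3, a stress-induced partner of ATF4, had 8.93 and 8.89 in passage 11 and passage 3 OPCs, against 9.92 in the rosette, a difference of -1.01 (SE 0.16, adjusted p = 0.0453). Neither call held with either OPC array left out, while the difference was -1.51 to -1.38 for Ero1a and -1.03 to -0.99 for Atf3. Those fits set 1 OPC array against 1 rosette array and called fewer of all genes than the fit with all arrays. Atf3 was also not called among bright genes alone (0.0651) or with an intensity trend (0.0633).

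The other pathway lists had no called gene in OPCs against the rosette. Median differences were -0.42 for 10 amino acid transporters (8 negative), -0.42 for 18 cytosolic aminoacyl-tRNA synthetases (12 negative), -0.14 for 14 eIF2 kinases and regulators and 0.17 for 15 one-carbon enzymes. The eIF2 kinase Eif2ak4 differed by -0.62 (adjusted p = 0.281), and the kinase Eif2ak2 by 0.47 (adjusted p = 0.652). Eif2ak4 was called only when an oligodendrocyte array was left out. Among the synthetases, which charge transfer RNAs and include many ATF4 targets, Sars differed by -1.06 (adjusted p = 0.102) and Cars by -1.01 (adjusted p = 0.177). The 23 genes of the endoplasmic reticulum unfolded protein response had a median of 0.19 with 6 negative. In that list Dnajc3, an inhibitor of the eIF2 kinase PERK, differed by 0.93 (adjusted p = 0.0557), and Herpud1, which helps degrade misfolded proteins, by -1.14 (adjusted p = 0.117). With passage as a block, the passage difference that OPCs and oligodendrocytes share no longer counts in the spread. The rosette and EpiSCs have no passage to match, so this is not a paired test. The calls over all genes then grew to 472 higher and 734 lower, against 251 and 373 without the block. No member of the 10 was called in that fit, which called 6.05% of all genes, while Dnajc3 (adjusted p = 0.0411), Herpud1 (0.0298), Cars (0.0486) and Mthfd2l (-0.92, adjusted p = 0.0488, against 0.0791 without the block), a mitochondrial folate enzyme, were. Dnajc3 was also called after array median centring (0.98, adjusted p = 0.0466). With either oligodendrocyte array left out, which set the spread by the OPC pair, Sars (0.0038), Cars (0.0081), Slc7a3 (0.0155), Slc1a5 (0.0152), Herpud1 (0.0014), Dnajc3 (0.0029) and Mthfd2l (0.0030) were called with the same differences, in a fit that called 14.5% of all genes.

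In OPCs against EpiSCs, 7 of the 10 genes had a negative difference (57.6% of all genes), with a median of -0.21 against -0.05 over all genes, and none was called higher (background 4.07%) or lower (2.93%). The enzymes next to serine synthesis moved in both directions, with 2 of 15 higher and 3 lower. Srr rose, with 10.49 and 10.38 in passage 11 and passage 3 OPCs, against 7.83 in EpiSCs (difference 2.61, SE 0.21, adjusted p = 0.0045). The mitochondrial folate enzyme Aldh1l2 also rose (1.76, SE 0.29, adjusted p = 0.0295). Mthfd1l (-1.38, adjusted p = 0.0269), Mthfd1 (-1.28, adjusted p = 0.0242), both folate enzymes, and Shmt1 (-1.03, adjusted p = 0.0263), which converts serine to glycine, fell.

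Of 10 amino acid transporters, 2 fell. Slc7a3 fell 13.5-fold, with 8.26 and 9.85 in passage 11 and passage 3 OPCs, against 12.81 in EpiSCs (difference -3.76, SE 0.68, adjusted p = 0.0385). Its fold was 23.6 without the passage 3 OPC array and 7.78 without the passage 11 OPC array. Slc1a5 fell to 8.997 and 9.81 in passage 11 and passage 3 OPCs, against 12.01 in EpiSCs (-2.61, SE 0.34, adjusted p = 0.0165). The other 8 transporters were not called, and the list median was -0.13. Of 18 other ATF4 and CHOP partners and targets, Cth (-2.20, SE 0.37, adjusted p = 0.0309) and Atf3 (-1.19, SE 0.16, adjusted p = 0.0179) fell. All 18 synthetases had a negative difference, with a median of -0.55, and 1 of them, Qars (-1.24, SE 0.22, adjusted p = 0.0363), passed the test. The unfolded protein response list had a median of 0.16 and no call, and the 14 eIF2 kinases and regulators a median of -0.40 and no call. Of these 14 differences 11 were negative and 3 positive, the latter including the kinase Eif2ak3 (0.63, adjusted p = 0.156). Eif2ak3 was called only when an oligodendrocyte array was left out, in the fits described below.

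Leaving out an OPC array ended several of these calls. Atf3 (difference -1.21 to -1.17), Mthfd1l (-1.56 to -1.19), Mthfd1 (-1.41 to -1.14), Shmt1 (-1.05 to -1.02) and Qars (-1.43 to -1.05) were not called with either OPC array left out. Aldh1l2 (1.44) was not called without the passage 3 array, and Cth (-1.87) was not called without the passage 11 array. Those fits hold 1 OPC array and called fewer of all genes than the fit with all arrays. Srr, Slc7a3 and Slc1a5 kept their calls with each OPC and each oligodendrocyte array left out in turn. With passage as a block the calls over all genes grew to 1259 higher and 1059 lower (11.6% of all genes in all), against 812 and 585 without it, and Sel1l (0.89, adjusted p = 0.0416, against 0.114), Dnajc3 (0.72, adjusted p = 0.0479, against 0.0686) and the eIF2B subunit Eif2b3 (-1.06, adjusted p = 0.0252, against 0.0643) were then called. The same 3 genes were called with either oligodendrocyte array left out (adjusted p 0.0033, 0.0105 and 0.00099), in fits that called 20.8% of all genes, and Eif2b3 also after array median centring (0.0413).

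**Figure D3:**
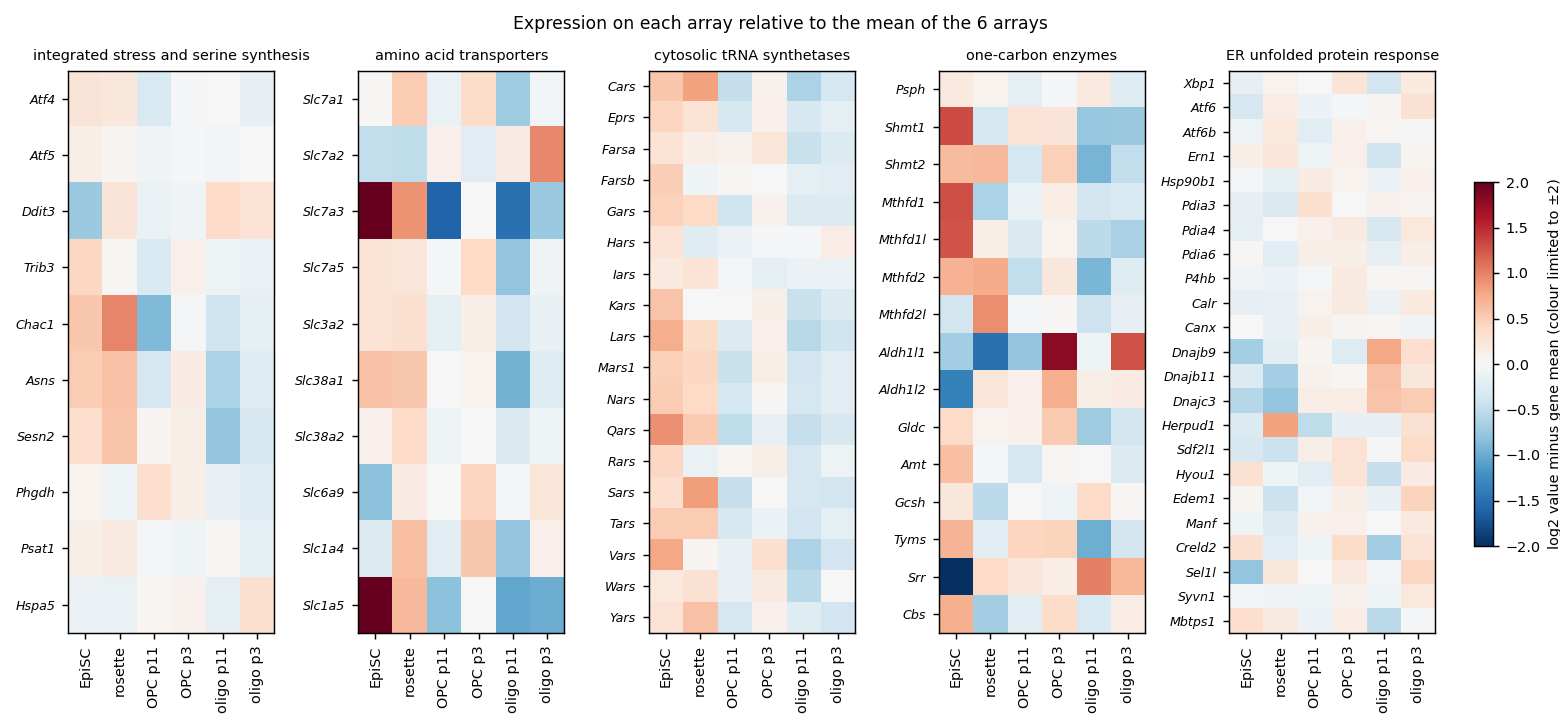
Log2 value of each gene on each of the 6 arrays minus its mean over the 6, as colour (red above, blue below, limited to 2 units either way), for the 10 genes at the left and for 4 related lists. Slc7a3 and Slc1a5 are red in EpiSCs, Srr is blue in EpiSCs and Aldh1l1 is red in both passage 3 cultures, while the 10 genes and the unfolded protein response list are paler, with Chac1 the most varied of the 10.

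In oligodendrocytes against OPCs, 6 of the 10 genes had a negative difference (49.8% of all genes), with a median of -0.01 against 0.00 over all genes, and none was called higher (background 0.396%) or lower (0.0502%). No gene of the 8 pathway lists was called. Of 18 synthetases 17 had a negative difference, with a median of -0.17, among them Vars (-0.59, adjusted p = 0.357) and Farsa (-0.52, adjusted p = 0.268). Of 10 transporters 9 were negative, with a median of -0.40, and Slc7a2 (0.62, adjusted p = 0.506) was the exception. Among the one-carbon enzymes Tyms, thymidylate synthase, differed by -1.10 (adjusted p = 0.168) and Shmt1 by -1.02 (adjusted p = 0.0717). Atf3 had 9.73 and 9.72 in passage 11 and passage 3 oligodendrocytes, against 8.93 and 8.89 in passage 11 and passage 3 OPCs, a difference of 0.81 (adjusted p = 0.113). In the unfolded protein response list Dnajb9, a co-chaperone of BiP, differed by 0.65 (adjusted p = 0.323), and the list median was -0.05. Among the eIF2 kinases and regulators, Impact differed by 0.43 (adjusted p = 0.338) and the kinase Eif2ak2 by -0.37 (adjusted p = 0.737). The Eif2ak2 difference was -0.74 without the passage 3 oligodendrocyte array, where it was called, and -0.003 without the passage 11 one. Slc38a1 (-0.97) was also called without the passage 3 array, and Nupr1 (1.36) without the passage 11 array. Without the passage 3 oligodendrocyte array, Tyms (0.00019), Shmt1 (0.0019), Atf3 (0.0079), Dnajb9 (0.0085), Vars (0.0403) and Farsa (0.0417) were called by adjusted p, in a fit that took its spread from the OPC pair alone and called 14.6% of all genes. Without the passage 11 array, Shmt1 (0.0031), Slc7a2 (0.0060), Atf3 (0.0146) and Tyms (0.0157) were called, with 6.85% of all genes. Shmt1 was also called after array median centring (0.0498). All 19 cell cycle genes were lower in oligodendrocytes, with a median of -1.09, 17 of them at an unadjusted p under 0.05 and 0 after adjustment over all genes. The part of this in the differences of the 10 genes was not tested.

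Passage 11 was set against passage 3 over the 4 later arrays in a fit that also held cell type, so that the p-values rest on how alike the 2 cell types were. Over both cell types 7 of the 10 genes had a negative difference, as did 43.2% of all genes. Of the 10 genes, 5 were lower at passage 11 in both cell types (Atf5, Chac1, Asns, Sesn2 and Hspa5), as were 28.5% of all genes. Phgdh and Psat1 were higher at passage 11 in both, as were 40.1% of all genes, and Atf4, Ddit3 and Trib3 ran in opposite directions, as did 31.4% of all genes. No gene of all 19938 was called by limma, and 2769 (13.9%) had an unadjusted p under 0.05, Asns and Chac1 among them.

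Asns had log2 values of 12.44 in oligodendrocytes and 12.72 in OPCs at passage 11, against 12.82 in oligodendrocytes and 13.23 in OPCs at passage 3. Its difference was -0.37 in oligodendrocytes and -0.51 in OPCs, and -0.44 over both (SE 0.12, 95% interval -0.76 to -0.13, adjusted p = 0.357). For Chac1 the difference was -0.20 in oligodendrocytes and -0.84 in OPCs, and -0.52 over both (SE 0.19, interval -1.05 to -0.00, adjusted p = 0.359). Sesn2 and Hspa5 differed mainly in oligodendrocytes, by -0.45 and -0.51, against -0.07 and -0.05 in OPCs.

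**Figure D4:**
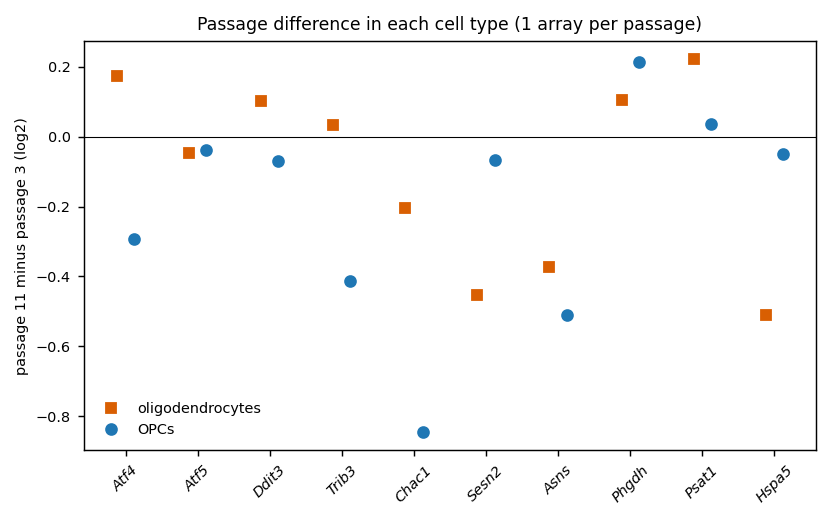
Log2 difference of passage 11 minus passage 3 (vertical axis) for each gene, with squares for oligodendrocytes and circles for OPCs, 1 array per passage. Asns is below 0 in both cell types by similar amounts, and Atf4 and Trib3 lie on opposite sides of 0.

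The pathway lists around them leaned the same way as Asns, without a call. All 10 transporters were lower at passage 11 by the fit over both cell types, with a median of -0.41 against 0.04 over all genes. Among them were Slc7a3 (-1.17) and the neutral amino acid carrier Slc1a4 (-0.82, adjusted p = 0.357 each). Of 18 synthetases 16 were lower (median -0.23, with Wars at -0.43 and Cars at -0.43), and of 23 unfolded protein response genes 18 were lower (median -0.21, with the endoplasmic reticulum genes Creld2 at -0.72 and Hyou1 at -0.56). Among the one-carbon enzymes Mthfd2, a mitochondrial folate enzyme and known ATF4 target, differed by -0.69. Of the ATF4 and CHOP partners and targets Aldh18a1, which makes the precursor of proline, differed by -0.79. The 19 cell cycle genes had a median of -0.59 with 18 lower at passage 11, and the 8 oligodendrocyte markers a median of 0.28. Of the 7 mesenchymal and smooth muscle markers 4 were lower at passage 11, with a list median of -0.10, and Tagln differed by -2.73 and Acta2 by -1.54. Of the 7 astrocyte markers 5 were lower, with a list median of -0.22, and Aqp4 differed by -0.93 and Gfap by -0.91. None of these markers was called. On the single arrays the mesenchymal list had medians of 9.06 to 9.60. The part of any of these genes in the passage differences of the 10 was not tested. Tagln, Acta2, Col1a1, Aqp4 and Gfap read highest on the passage 3 oligodendrocyte array, while the other mesenchymal and astrocyte markers read highest on other arrays. Within OPCs the passage difference was -1.60 for Tagln and -1.15 for Acta2. Aqp4 read 7.84 and 8.27 in passage 11 and passage 3 OPCs, and Gfap read 8.11 in both.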

How the data were processed

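The authors deposited log2 values summarised by RMA, with Affymetrix Expression Console named in the submitters' processing notes; its version is not given in the sources used here. Per the labels, 150 ng of total RNA was used for biotin-labelled target. Values ranged from 3.26 to 14.9 and array medians from 8.98 to 9.04. No detection call was used, so low values can be background and their differences compressed. Precision is limited by the number of arrays.

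Of 35556 rows, 21789 carried 1 symbol, and the row with the highest mean was kept per gene, leaving 19938. None of the 10 genes had several such rows. A RefSeq table (GRCm38.p6) held the Entrez ID of 21698 rows and changed 0 symbols, and promoters and positions come from RefSeq.

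Tests were two-sided limma fits (version 3.58.1, R 4.3.3) with lmFit and eBayes, adjusted over all genes by Benjamini-Hochberg and called at adjusted p under 0.05. The 4 cell types were groups over all 6 arrays (2 residual and 3.32 prior degrees of freedom). The lone EpiSC and rosette arrays were assumed to vary like the OPC and oligodendrocyte pairs. Passage was fitted on 4 arrays with cell type as covariate (1 residual and 3.19 prior degrees of freedom). The rosette against EpiSCs has no replicate and no test, and genes were counted at 2-fold. The size of its estimates was checked on simulated data with planted differences and independent noise, alike on every array for a gene. The simulation linked no arrays of the same passage, so it does not test the p-values given here.

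The members and the 16 other lists (192 entries, 180 measured, the rest not analysed here) were chosen with earlier results of these data known. All 10 members are named. Unless said otherwise, the genes named from a list are among its up to 4 called genes with the largest difference, or 2 uncalled ones whose brighter side was above the median gene. Not every gene picked in this way is named. Shmt1 in OPCs against EpiSCs was named after its value was seen. Oligodendrocytes of a passage were taken as made from OPCs of that passage, from the labels, and over all genes the deviations of same-passage arrays from their group means correlated at r = 0.503 (2 pairs), so passage was used as a block in an alternative fit. The others were each array left out, bright genes only, an intensity trend in eBayes, array median centring, the mean of a gene's rows, the 4 later arrays alone and, chosen after seeing the data, the shared Phgdh row.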

Additional observations from a re-analysis of the deposited data

Results flagged for a closer look

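For 3 of the 10 genes, Atf4, Ddit3 and Trib3, the passage difference ran in opposite directions in oligodendrocytes and OPCs. Each cell type has 1 array per passage, so the opposition was not tested, and 31.4% of all genes showed it. Of the 124 genes of the 8 pathway lists 24 showed it (19.4%), with Bag3 among those that the naming rule picked for the passage comparison. Atf4, passage 11 minus passage 3, was 0.18 in oligodendrocytes and -0.29 in OPCs, a gap of 0.47 on the log2 scale. Trib3 was 0.03 in oligodendrocytes and -0.41 in OPCs, a gap of 0.45. Ddit3 was 0.10 in oligodendrocytes and -0.07 in OPCs, a gap of 0.17. For Bag3, a co-chaperone of the heat shock response, the gap was -0.99. Wider gaps were found for Kif23 (-1.66), a cell division gene, and Nupr1 (-1.36), a stress-induced gene, both named here after their values were seen.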

How the results depend on the processing

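Under every alternative that could move them, 8 of the 10 genes kept direction and side of the threshold in OPCs against the rosette (not Chac1 and Trib3) and 8 against EpiSCs (not Chac1 and Ddit3). In oligodendrocytes against OPCs 3 did, Asns, Ddit3 and Phgdh. Between passages Phgdh turned with the shared row, and the differences of Atf4, Ddit3 and Trib3 had opposite signs in oligodendrocytes and OPCs. The passages are the only replicates, so there was no separate spread between replicates to set these differences against. With passage as a replicate block, calls over all genes were 472 higher and 734 lower in OPCs against the rosette and 1259 higher and 1059 lower against EpiSCs, and no call or direction of the 10 genes changed. Bright genes alone gave 149 called lower against the rosette, 217 against EpiSCs, and 412 at least 2-fold lower in the rosette than in EpiSCs. For oligodendrocytes against OPCs the intensity trend gave 4 called lower, and array median centring gave 128 higher and 29 lower. Between passages the intensity trend called 1 gene higher, and centring 1 higher and 1 lower. Leaving out 1 array gave 71 to 1128 higher and 85 to 1769 lower in OPCs against the rosette (0 to 1 of the 10 genes lower), 306 to 2127 and 164 to 2027 against EpiSCs (0 to 1 of the 10 each way), and 2 to 1151 and 0 to 1768 in oligodendrocytes against OPCs (0 to 1 of the 10 lower). The high counts came without an oligodendrocyte array, the low ones without an OPC array. The direction turned when 1 array was left out for Trib3 in OPCs against the rosette (-0.33 to 0.084). It turned in oligodendrocytes against OPCs for Atf4 (-0.060 to 0.23), Atf5 (-0.0013 to 0.045), Trib3 (-0.22 to 0.19), Chac1 (-0.27 to 0.58), Psat1 (-0.14 to 0.084) and Hspa5 (-0.26 to 0.25), and the cause was not tested. The shared row gave Phgdh a passage difference of -0.36, against 0.16. Signal over background was not used, so its effect is not known here.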

Other observations

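In the cytosolic heat shock list Hspb1, a small chaperone, had log2 values of 12.33 in EpiSCs, 8.41 in the rosette, 8.57 and 9.11 in passage 11 and passage 3 OPCs, and 8.90 and 12.22 in passage 11 and passage 3 oligodendrocytes. The EpiSC and the passage 3 oligodendrocyte array stood together, over 3 units above the others, and none of the 4 tested comparisons called the gene, except with an oligodendrocyte array left out. The passage 3 oligodendrocyte array also held the highest value of Hspa5 and of the smooth muscle markers Tagln (13.34, against 7.90 to 10.89 elsewhere) and Acta2 (13.79). It held that of Col1a1 and of the astrocyte markers Gfap (10.50) and Aqp4 (9.89) too. The other astrocyte markers peaked elsewhere, Aldoc, Slc1a3 and Slc4a4 in passage 3 OPCs and Mlc1 and Acsbg1 in passage 11 oligodendrocytes. Of the other mesenchymal markers, Col1a2 and Lum peaked in EpiSCs, Postn in the rosette and Col3a1 in passage 11 oligodendrocytes. Aldh1l1, a folate enzyme that is also an astrocyte marker, read 9.36 in oligodendrocytes and 8.65 in OPCs at passage 11, against 10.71 in oligodendrocytes and 11.25 in OPCs at passage 3. Its passage difference of -1.98 had an adjusted p of 0.357, while the 7 genes of the astrocyte marker list had a median passage difference of -0.22.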
